A study of Mus musculus with 2 samples.

Results

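The canonical Wnt pathway and its best known targets in intestinal stem cells were followed through 10 genes in CT26 cells with reduced Setdb1. The genes, taken by symbol from a table of 54680 loci, were Ctnnb1, Tcf7, Lef1, Tcf7l2, Axin2, Nkd1, Lgr5, Ascl2, Sox9 and Klf5, and each symbol stood on a single locus. CT26 is a mouse colon carcinoma line. In the group CT26shSetdb1 (genotype Setdb1 knockdown), lentivirus had delivered a short hairpin RNA directed at Setdb1, the gene of a histone methyltransferase that silences chromatin. In the group CT26shCtrl (genotype wild type), cells carried lentivirus with the empty knockdown vector. Both were grown for 6 days in RPMI medium with serum, and the labels call the knockdown cells differentiated and altered in phenotype. The labels do not give the hairpin's sequence, whether a cell clone was used, or how many cultures went into a library. RNA sequencing gave 1 library a group, named below by its group, so no difference below has a replicate check, and each describes these 2 libraries and not the conditions.

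In the canonical Wnt pathway, a Wnt ligand bound by Frizzled and LRP receptors stops a cytoplasmic complex from destroying beta-catenin. Beta-catenin then enters the nucleus and binds TCF/LEF proteins, which turn on target genes, among them feedback inhibitors such as Axin2. In the intestine this signal is strongest at the crypt base, where Lgr5 marks the stem cells and Ascl2 is needed to maintain them. Sox9 and Klf5 are transcription factors of crypt cells, and Sox9 is also made in Paneth cells and in progenitors of many other tissues.

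These genes differed in detection and in direction. Of the 10 genes, 3 had no read in either library (Lgr5, Nkd1 and Tcf7) and Ascl2 had 1 read in all. Ctnnb1 and Sox9 were higher in CT26shSetdb1, Ctnnb1 at 68.1 against 39.4 FPKM and Sox9 at 14.3 against 6.21 FPKM. Klf5, Lef1, Tcf7l2 and Axin2 were lower, and of these only Axin2 had a read ratio past 2-fold, on 13 reads against 33. By read ratio, 10.7% of all genes with at least 20 reads were higher by 2-fold or more and 10.3% were lower by as much. Intervals of counting error, described below, lay above equality for 33.0% of those genes and below it for 38.4%. Differences in both directions are therefore common in these libraries.

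Levels are given in FPKM, fragments scaled by gene model length and by depth, so they can be compared between genes. The deposited values came out as whole reads for 100% of values above 0 in both libraries. Reads totalled 19045830 in CT26shSetdb1 and 18421604 in CT26shCtrl, while both had been divided by 1 common depth of 18731117 reads. Log2 ratios are CT26shSetdb1 over CT26shCtrl, of FPKM with 1 added, and this scale understates differences of genes at low levels. Read ratios are relative to each library's own total, with 95% exact binomial (Clopper-Pearson) intervals. Intervals on a level are 95% exact Poisson intervals. Both kinds cover counting error only, because 1 library a group shows no variation between cultures. PCR copies of a molecule are counted as separate reads where no molecular identifiers are used, so the intervals may be too narrow even for that. As a check of the labels, Setdb1 was at 2.47 FPKM (317 reads) in CT26shSetdb1 and 10.4 FPKM (1340 reads) in CT26shCtrl, a read ratio of 0.229 (0.202 to 0.259). Its gene model overlaps Cers2 by 75 bases.

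The promoters of the members are shown first, since TCF/LEF proteins act by binding DNA. The RefSeq promoter table (GRCm38.p6) held 13 start sites for 7 of the 10 members, and no entry for Lgr5, Sox9 and Klf5. The 250 bases before each start were searched on both strands for CTTTGAA and CTTTGAT, forms of the TCF/LEF motif, and for CTTTG, the core within both. None of the 13 member windows held either of these 7-letter forms, which occurred in 7.48% of all 32851 windows. Other 7-letter forms of the motif were not searched or counted. The core in the more downstream window of Tcf7l2 reads on as CTTTGTT, and a core of Lef1 reads on as CTTTGTA on the minus strand. The core was in 6 of the 13 member windows, against 48.6% of all windows. These 6 were all windows of Lef1 and Tcf7l2, and no window of the other members held it. Windows of Lef1 overlap in part, so a site there is counted more than once. The sequences below are for a target (Axin2), the coactivator (Ctnnb1, the more upstream of its starts) and a DNA-binding partner (Tcf7l2, the more upstream start), each printed 5′ to 3′ along the gene. They are chr11:108920099-108920348, chr9:120933150-120933399 and chr19:55741560-55741809, all on the plus strand. Capitals mark the core, which in Tcf7l2 lies on the minus strand and so reads as its reverse complement.
Axin2: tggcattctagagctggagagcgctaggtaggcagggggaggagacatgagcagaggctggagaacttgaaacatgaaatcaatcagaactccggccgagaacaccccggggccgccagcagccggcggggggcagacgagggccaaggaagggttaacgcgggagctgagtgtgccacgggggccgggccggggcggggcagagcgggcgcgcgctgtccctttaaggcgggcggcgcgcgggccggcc
Ctnnb1: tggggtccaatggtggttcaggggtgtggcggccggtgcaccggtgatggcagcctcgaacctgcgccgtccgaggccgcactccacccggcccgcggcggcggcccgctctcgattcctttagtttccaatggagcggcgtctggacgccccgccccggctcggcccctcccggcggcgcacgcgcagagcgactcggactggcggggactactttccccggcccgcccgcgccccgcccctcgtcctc
Tcf7l2: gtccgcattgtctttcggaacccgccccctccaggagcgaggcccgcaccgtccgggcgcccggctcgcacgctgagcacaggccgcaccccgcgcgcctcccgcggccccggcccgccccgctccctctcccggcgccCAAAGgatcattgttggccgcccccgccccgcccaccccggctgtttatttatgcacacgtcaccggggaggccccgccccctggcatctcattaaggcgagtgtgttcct
The windows of Axin2 and Ctnnb1 hold no core, and that of Tcf7l2 holds 1, starting 111 bases before the start site. All of them are rich in CpG, with 24 CpG in Axin2, 35 in Ctnnb1 and 30 in Tcf7l2, against a median of 6 over all windows. These matches are a description of letters in short windows, and sites elsewhere in these genes were not searched.

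Beta-catenin and its DNA-binding partners came next. Ctnnb1 (ENSMUSG00000006932, GRCm38 chromosome 9, 120929216 to 120960507, plus strand) encodes beta-catenin, which serves both in cell adhesion and as the coactivator of Wnt targets. It had 3830 reads in CT26shCtrl and 6626 in CT26shSetdb1, which are 39.4 FPKM (38.1 to 40.6) and 68.1 FPKM (66.5 to 69.8). Ctnnb1 was the most abundant member in both libraries. Its log2 ratio was 0.78, under the 2-fold threshold, and its read ratio was 1.67 (1.61 to 1.74). Of all genes that reached 1 FPKM in at least 1 library, 11.3% had a higher log2 ratio. The end of Ctnnb1 overlaps Ulk4, a gene on the opposite strand, by 5157 bases. Ulk4 was also higher in CT26shSetdb1, with 356 reads against 133, and whether counting used strand is not given in the sources used here, so the division of reads between these genes is uncertain. The reads counted for Ulk4 are few beside those of Ctnnb1. They do not show how many reads of the shared bases were counted for Ctnnb1 or left out.

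The DNA-binding partners were low. Lef1 (ENSMUSG00000027985, chromosome 3, 131110471 to 131224356), which encodes lymphoid enhancer-binding factor, had 176 reads (1.07 FPKM) in CT26shCtrl and 129 reads (0.784 FPKM) in CT26shSetdb1. Tcf7l2 (ENSMUSG00000024985, chromosome 19, 55741810 to 55933654), the main TCF gene of the intestinal epithelium, had 168 reads (1.03 FPKM) and 141 reads (0.861 FPKM). Both were slightly lower in CT26shSetdb1. The read ratio was 0.709 (0.560 to 0.895) for Lef1 and 0.812 (0.644 to 1.02) for Tcf7l2, so the interval of Tcf7l2 holds equality. Levels of Lef1 and Tcf7l2 could not be separated within either library, where their counting intervals overlap. An overlapping antisense locus of Lef1, Gm43352, had 6 reads in CT26shCtrl and 9 in CT26shSetdb1.

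Tcf7 (ENSMUSG00000000782, chromosome 11, 52252371 to 52283014, minus strand), which encodes a TCF protein best known from T cells and is itself a Wnt target, had 0 reads in both libraries. The limit for a count of 0 is given here and below as a floor of 3 reads, 0.061 FPKM for Tcf7, and the 95% Poisson interval reaches 0.075 FPKM. Tcf7l1, the remaining gene of the family and mostly a repressor, had 2 reads in CT26shCtrl and 0 in CT26shSetdb1. The 4 TCF/LEF genes together summed to 2.12 FPKM in CT26shCtrl and 1.65 FPKM in CT26shSetdb1. Lef1 and Tcf7l2 made up 50.4% and 48.3% of this sum in CT26shCtrl. The level of Ctnnb1 was 18.6 times the TCF/LEF sum in CT26shCtrl and 41.4 times in CT26shSetdb1, with Ctnnb1 higher and the sum lower in CT26shSetdb1.

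**Figure D1:**
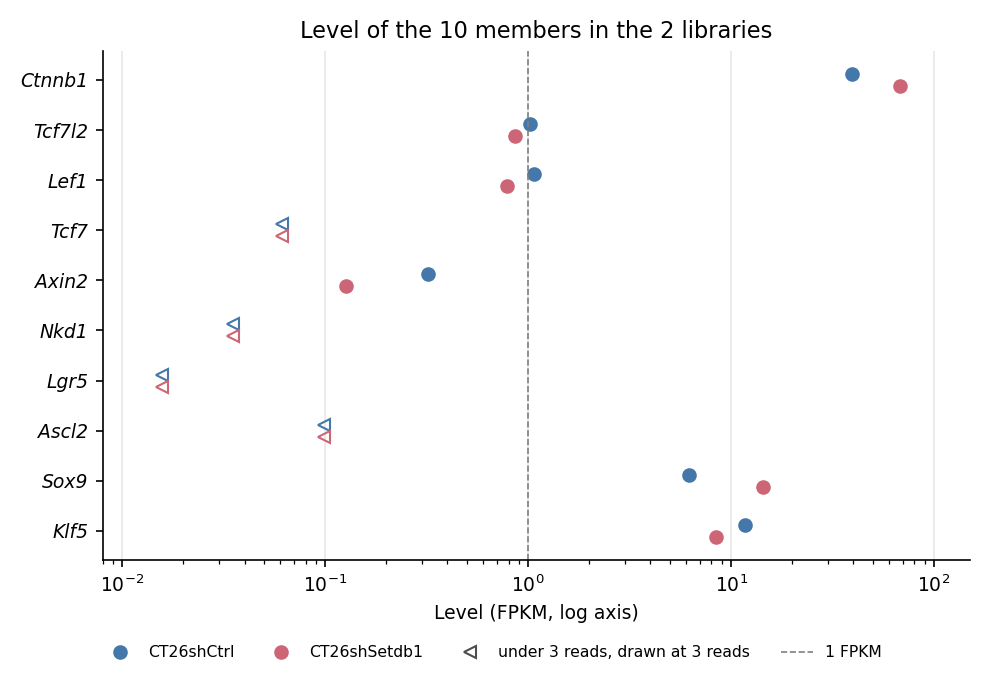
Level of each of the 10 genes in FPKM on a log axis, 1 point for CT26shCtrl and 1 for CT26shSetdb1; open triangles mark values under 3 reads, drawn at the level of 3 reads. Ctnnb1 and Sox9 are higher in CT26shSetdb1, Klf5, Lef1, Tcf7l2 and Axin2 are lower, and Tcf7, Nkd1, Lgr5 and Ascl2 are under 3 reads in both.

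Feedback inhibitors that Wnt signalling turns on were low or without reads. Axin2 (ENSMUSG00000000142, chromosome 11, 108920349 to 108950783), a scaffold of the complex that destroys beta-catenin and the most widely used reporter of Wnt signalling, had 33 reads in CT26shCtrl and 13 in CT26shSetdb1. These are 0.320 FPKM (0.220 to 0.449) and 0.126 FPKM (0.0671 to 0.216). Its read ratio was 0.381, with an interval from 0.184 to 0.743, so the size of the difference is poorly known. The log2 ratio of (FPKM + 1) was only -0.23, because the added 1 exceeds both levels. No overlapping locus of Axin2 had reads. Nkd1 (ENSMUSG00000031661, chromosome 8, 88521354 to 88594884), which encodes an inhibitor that binds Dishevelled, had 0 reads in both libraries, with a floor of 0.0351 FPKM. Its paralog Nkd2 also had 0 reads in both.

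The defining stem cell genes were not detected. Lgr5 (ENSMUSG00000020140, chromosome 10, 115450311 to 115587780, minus strand) encodes a receptor for R-spondins that strengthens Wnt signals. With a gene model of 10264 bases and 0 reads in both libraries, its floor of 3 reads is 0.0156 FPKM, the lowest among the members, and its Poisson interval reaches 0.0192 FPKM. Ascl2 (ENSMUSG00000009248, chromosome 7, 142966829 to 142969264, minus strand) encodes a helix-loop-helix transcription factor and had 0 reads in CT26shCtrl and 1 in CT26shSetdb1. Both libraries are under the floor of 3 reads for Ascl2, 0.0987 FPKM, so no fold is given.

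Sox9 and Klf5 were both well detected and differed in opposite directions. Sox9 (ENSMUSG00000000567, chromosome 11, 112782224 to 112787760), a transcription factor with a high mobility group box, had 481 reads in CT26shCtrl and 1109 in CT26shSetdb1. These are 6.21 FPKM (5.67 to 6.79) and 14.3 FPKM (13.5 to 15.2). The read ratio was 2.23 (2.002 to 2.49). With a log2 ratio of 1.09, Sox9 was the only member past the 2-fold threshold on the log2 scale. Its lead over the threshold is small, 6.81% of all genes at 1 FPKM passed it upward, and 5.78% had a higher log2 ratio. No locus overlapping Sox9 is in the table, and its closest relatives, Sox8 and Sox10, had 0 reads in both libraries.

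Klf5 (ENSMUSG00000005148, chromosome 14, 99298691 to 99315036) encodes a zinc finger factor that promotes proliferation of crypt cells. It had 1147 reads in CT26shCtrl and 817 in CT26shSetdb1, which are 11.8 FPKM (11.1 to 12.5) and 8.39 FPKM (7.82 to 8.98). Its read ratio was 0.689 (0.629 to 0.754), and its log2 ratio of -0.44 was under the threshold. The order of these genes therefore differed between the libraries, with Klf5 above Sox9 in CT26shCtrl and Sox9 above Klf5 in CT26shSetdb1. In both libraries their counting intervals were apart. Below them came Lef1 and Tcf7l2, which could not be separated, and then Axin2.

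**Figure D2:**
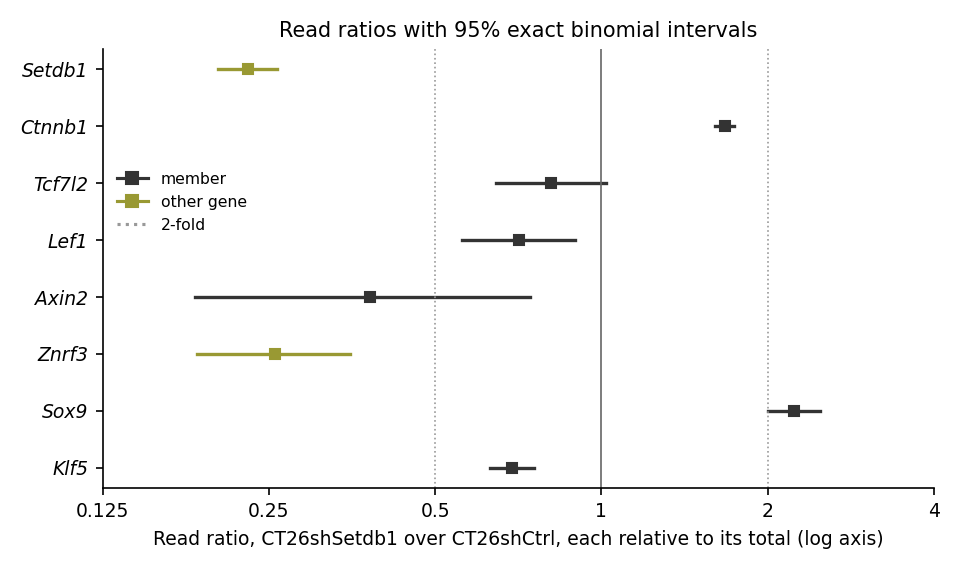
Ratio of reads, knockdown over control and each relative to its library's total, on a log axis with 95% exact binomial intervals, for the 6 members with at least 20 reads and for Setdb1 and Znrf3; dotted lines mark 2-fold. Sox9 (2.23) and Ctnnb1 (1.67) lie above 1, Klf5, Lef1 and Axin2 lie below it, and the interval of Tcf7l2 crosses it. Znrf3 was added after its values were seen, and its partner Rnf43, whose interval holds 1, is not plotted.

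The members were then set beside all genes. FPKM reached 1 in at least 1 library for 5 of the 10 members (Ctnnb1, Sox9, Klf5, Lef1 and Tcf7l2). Of these, 1 was at least 2-fold higher in CT26shSetdb1 and 0 were at least 2-fold lower. Over the 10671 genes that passed the same filter, 6.81% were at least 2-fold higher and 4.85% were lower by as much. The median log2 ratio of the 5 members was -0.12, set by Tcf7l2, beside a median of -0.00039 over all genes. Among the 6 members with at least 20 reads over both libraries, counting intervals lay above 1 for 2 (Ctnnb1 and Sox9) and below 1 for 3 (Axin2, Lef1 and Klf5). Such an interval is common here, since those of 71.4% of the 12546 genes with 20 reads left out 1, 33.0% above and 38.4% below. By read ratio, 1 of the 6 was at least 2-fold higher (Sox9) and 1 at least 2-fold lower (Axin2), beside 10.7% and 10.3% of those genes. Because RNA was taken from whole cultures, fewer cells that express a gene and less RNA per cell cannot be told apart.

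**Figure D3:**
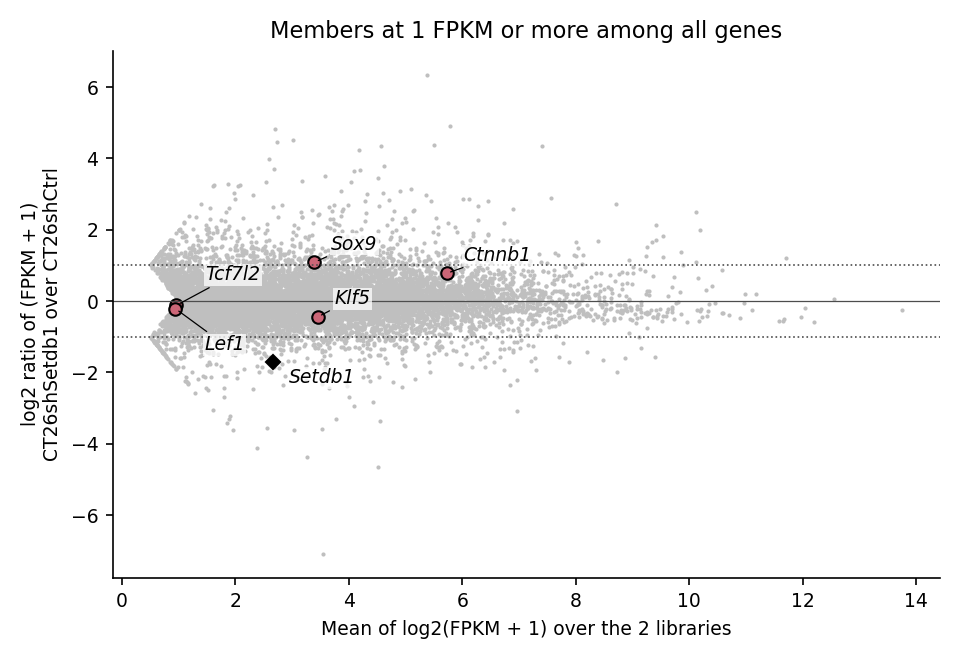
Log2 ratio of (FPKM + 1), knockdown over control, against the mean of log2(FPKM + 1) for the 10671 genes that reached 1 FPKM in either library (grey), with the 5 members that passed (red) and Setdb1 (diamond); dotted lines mark 2-fold. Sox9 lies just above the upper line, Ctnnb1 just below it, and Klf5, Lef1 and Tcf7l2 lie within the main band of genes.

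Other genes were taken from 6 lists of the Wnt pathway and its targets, ordered by role, and from lists of intestinal stem cell and differentiated cell genes. The 6 Wnt lists held 105 genes, of which 51 reached 1 FPKM in at least 1 library. Of these 51, 4 were at least 2-fold higher, 2 were lower by as much, and 45 were within 2-fold. Over all genes, 6.81% and 4.85% were. The median log2 ratio of the 51 was 0.12, beside -0.00039 over all genes. No read was found in either library for 35 of the 105. By read ratio, 8 of the 59 with at least 20 reads were at least 2-fold higher and 8 lower, beside 10.7% and 10.3% of all genes.

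Among 21 genes for Wnt ligands and their secretion, 5 reached 1 FPKM and 1 was at least 2-fold higher, beside 6.81% of all genes. That gene was Wnt10a, a ligand of the canonical pathway, with 751 reads (16.2 FPKM) in CT26shCtrl and 3208 reads (69.4 FPKM) in CT26shSetdb1. Its log2 ratio was 2.03 and its read ratio 4.13 (3.81 to 4.48). Its neighbour Wnt6, named for its position after its values were seen, had 0 reads in both libraries. Porcn, the enzyme that adds the lipid Wnt proteins need for secretion, had the lowest ratio of this list, at 7.40 and 6.66 FPKM (log2 ratio -0.13).

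Of 23 genes for R-spondins, receptors and receptor turnover, 9 reached 1 FPKM. On the log2 scale 0 of these passed 2-fold, beside 6.81% of all genes higher and 4.85% lower. By read ratio, 2 of the 13 with at least 20 reads were at least 2-fold higher and 3 lower, beside 10.7% and 10.3% of all such genes. On the log2 scale Fzd7 had the highest and Fzd6 the lowest ratio, both Frizzled receptors. Fzd7 had 567 reads (6.68 FPKM) in CT26shCtrl and 1218 (14.3 FPKM) in CT26shSetdb1, and its log2 ratio of 0.999 was just under the threshold. Fzd6 had 701 reads (7.77 FPKM) and 350 reads (3.88 FPKM), with a read ratio of 0.483 (0.424 to 0.550) and a log2 ratio of -0.85. Znrf3, a ubiquitin ligase that removes Frizzled receptors and a feedback target like Axin2, was named after its values were seen. It had 196 reads in CT26shCtrl and 52 in CT26shSetdb1, a read ratio of 0.257 (0.185 to 0.350), the lowest of the list's genes with at least 20 reads, at a log2 ratio of -0.78. Its partner Rnf43, also named after its values were seen, had 8 and 18 reads, and the interval of its ratio, 0.900 to 5.78, holds equality. Lgr6, a relative of Lgr5 named for that after its values were seen, was at 4.64 FPKM in CT26shCtrl and 8.20 FPKM in CT26shSetdb1. Of 13 secreted inhibitors, Apcdd1 alone reached 1 FPKM, at 2.69 and 2.77 FPKM, and 10 had no read in either library. Dkk2, an LRP receptor antagonist named after its values were seen, stayed under 1 FPKM with 57 reads in CT26shCtrl and 9 in CT26shSetdb1, a read ratio of 0.153 (0.0665 to 0.311).

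Of 17 genes of cytoplasmic transduction, 14 reached 1 FPKM. Beside 6.81% and 4.85% of all genes, 0 of these were at least 2-fold higher and 1 was at least 2-fold lower. Gsk3b, a kinase that marks beta-catenin for destruction, was that gene, with 1189 reads (6.46 FPKM) in CT26shCtrl and 494 (2.68 FPKM) in CT26shSetdb1. Its log2 ratio was -1.02 and its read ratio 0.402 (0.361 to 0.447). Its paralog Gsk3a, named after its values were seen, was far more abundant at 63.9 and 59.4 FPKM. Axin1, the constitutive relative of Axin2, was at 47.8 FPKM in CT26shCtrl and 34.4 FPKM in CT26shSetdb1 (read ratio 0.696, 0.661 to 0.733). Apc, another scaffold of the destruction complex, had 305 and 162 reads (read ratio 0.514, 0.422 to 0.624). Btrc, the ubiquitin ligase subunit that recognises phosphorylated beta-catenin, had the highest ratio of the list, with 648 and 1374 reads (log2 ratio 0.81, read ratio 2.05).

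Of 15 nuclear cofactors, 12 reached 1 FPKM. On the log2 scale 0 of these passed 2-fold, beside 6.81% of all genes higher and 4.85% lower. The highest ratio was that of Tle2, a corepressor that binds TCF proteins, with 118 reads in CT26shCtrl and 285 in CT26shSetdb1 (log2 ratio 0.78). The lowest was that of Crebbp, a histone acetyltransferase, with 538 and 272 reads (log2 ratio -0.59). By read ratio, which adds no pseudocount, both were past 2-fold, Tle2 at 2.34 (1.88 to 2.92) and Crebbp at 0.489 (0.421 to 0.567). Of the 13 cofactors with at least 20 reads, 1 was thus at least 2-fold higher and 1 lower, beside 10.7% and 10.3% of all such genes.

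Further genes described as Wnt targets went in both directions. Of 16 such genes, 10 reached 1 FPKM, 3 were at least 2-fold higher and 1 was at least 2-fold lower, beside 6.81% and 4.85% of all genes. Id2, an inhibitor of helix-loop-helix factors, had the highest ratio, at 7.40 FPKM in CT26shCtrl and 31.8 FPKM in CT26shSetdb1 (log2 ratio 1.97). Myc, a driver of growth and proliferation, had the lowest log2 ratio, with 4400 reads (86.5 FPKM) and 1547 reads (30.4 FPKM) and a log2 ratio of -1.48. By read ratio Tiam1, an activator of Rac named after its values were seen, was at 0.319 (0.251 to 0.402; 297 and 98 reads) and Myc at 0.340 (0.321 to 0.360), and these intervals overlap. The others past 2-fold, named after their values were seen, were Jun (log2 ratio 1.70) and Ephb2 (1.04), the latter a receptor that positions cells along the crypt. Several of these genes also answer to signals other than Wnt.

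Of 18 further genes reported in intestinal stem or regenerating cells, 10 reached 1 FPKM, 3 were at least 2-fold higher and 0 were at least 2-fold lower, beside the same shares of all genes. Ly6a, an interferon-responsive surface protein also found in regenerating gut epithelium, had 72 reads (3.19 FPKM) in CT26shCtrl and 1749 reads (77.5 FPKM) in CT26shSetdb1. Its read ratio was 23.5 (18.6 to 30.2). The others, named after their values were seen, were Rgmb (log2 ratio 1.44) and Lrig1 (1.26), a brake on growth factor receptors. Cdca7 had the lowest ratio, at 21.1 and 10.4 FPKM (log2 ratio -0.96, read ratio 0.476). Olfm4, a marker of crypt stem cells named after its values were seen, had 0 reads in both libraries.

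Of 18 genes of differentiated intestinal cells, 1 reached 1 FPKM. That was Krt20, a keratin of mature surface epithelium, with 183 reads (5.07 FPKM) in CT26shCtrl and 1285 reads (35.6 FPKM) in CT26shSetdb1, a read ratio of 6.79 (5.81 to 7.97). The other 17 held 9 reads in CT26shCtrl and 31 in CT26shSetdb1. They include Epcam, Cdh1, Cdx2 and Vil1, which are general epithelial or intestinal genes and are counted again among the epithelial markers below. Among 7 relatives of Sox9 and Klf5, 5 reached 1 FPKM and 1 was at least 2-fold higher, beside 6.81% of all genes. Klf10, a factor induced by TGF-beta, had the highest ratio (7.27 to 28.4 FPKM, log2 ratio 1.83) and Klf4, a factor of differentiating gut epithelium, the lowest (38.8 to 21.6 FPKM, log2 ratio -0.82). Klf4 and Klf5, which often act against each other, were thus both lower in CT26shSetdb1.

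**Figure D4:**
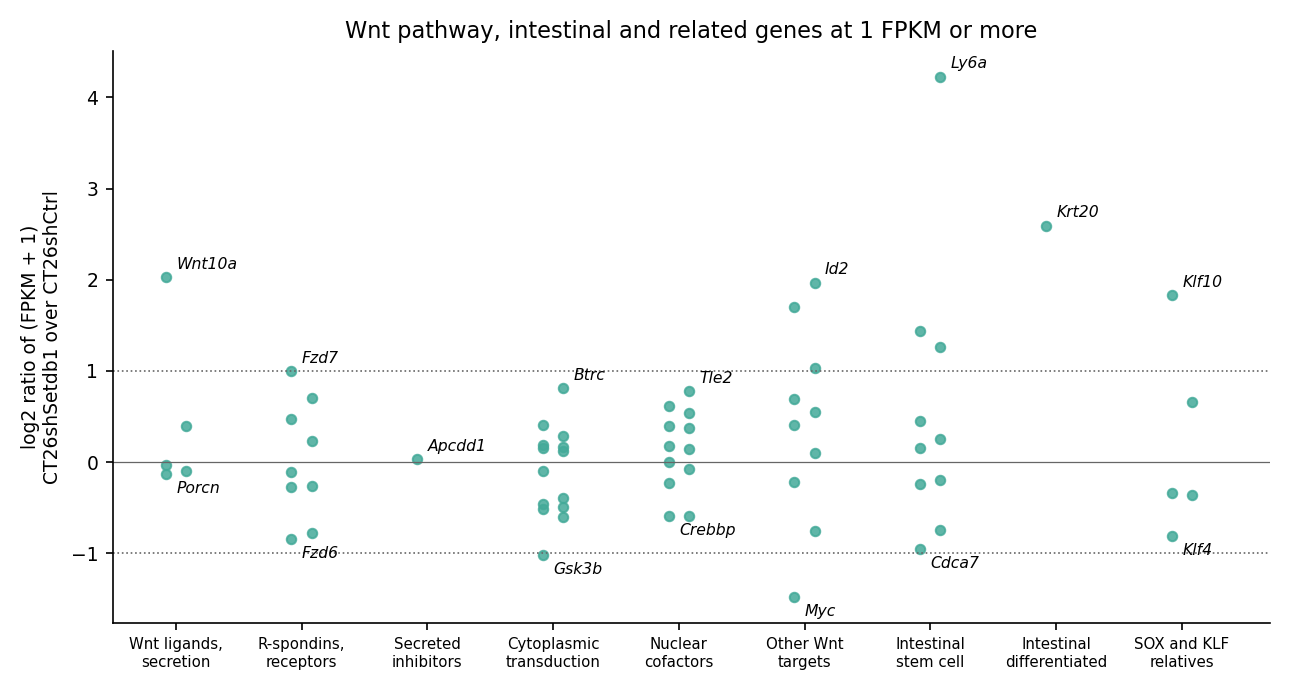
Log2 ratio of (FPKM + 1), knockdown over control, of the genes that reached 1 FPKM in either library in each list of Wnt pathway, intestinal, SOX and KLF genes (1 point a gene), with the highest and the lowest gene of each list named; dotted lines mark 2-fold. Of the named genes, Wnt10a, Id2, Ly6a, Krt20 and Klf10 lie above the upper line and Gsk3b and Myc below the lower one. Jun, Rgmb, Lrig1 and Ephb2, not named in the plot, also lie above the upper line, and most genes lie between.

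The labelled cell type was checked on markers of epithelium and of other cells. Of 7 epithelial markers, 2 reached 1 FPKM (Krt18 and Krt19), and Epcam and Cdh1, which define epithelium, had 0 reads in both libraries. The summed level of the list was 38.1 FPKM in CT26shCtrl and 92.3 FPKM in CT26shSetdb1. Nearly all of it was Krt18, at 37.7 and 90.0 FPKM, so the sum describes that gene. Krt19 had 1 and 53 reads, and Krt8 had 7 and 8. Cdx2, the intestinal identity factor, had 5 and 18 reads. Of 8 fibroblast markers, 5 reached 1 FPKM, with sums of 189 and 136 FPKM, and Col1a2 was the most abundant at 140 and 94.1 FPKM, while Lum and Thy1 had 0 reads in both libraries. The 5 that reached 1 FPKM differed in direction. The collagen genes were lower, with read ratios of 0.652 (0.640 to 0.663) for Col1a2, 0.722 (0.688 to 0.758) for Col1a1 and 0.320 (0.266 to 0.383) for Col3a1. Read ratios were 1.05 (0.971 to 1.13) for Pdgfrb and 3.43 (2.72 to 4.36) for Pdgfra, which had 94 and 333 reads. None of 6 immune and 4 endothelial markers reached 1 FPKM, with sums of 1.12 and 0.974 FPKM for immune and 0.0113 and 0 FPKM for endothelial markers. Cd3e, Adgre1, Itgam, Pecam1, Cdh5 and Kdr had 0 reads in both libraries. The part of the differences in epithelial and fibroblast markers in the values of Sox9, Klf5 and Ctnnb1 was not tested.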

How the data were processed

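RNA sequencing covered 2 groups of CT26 cells with 1 library each. Groups come from the genotype in the labels and columns from the library names there. The authors deposited FPKM values per locus, per the file headers. The submitters' processing notes name CASAVA, HISAT2, featureCounts 1.5.0-p3 and GRCm38. The counting settings, strand and annotation release are not given in the sources used here. Of 54409 gene IDs also in GENCODE M21 (GRCm38), 98.3% had the same start and end, as did 9 of the 10 members, so coordinates are the table's.

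From the deposited FPKM, whole reads were recovered as FPKM times gene length over the smallest such value (tolerance 0.01), which gave totals of 18421604 and 19045830 reads. Log2 ratios used a pseudocount of 1 FPKM, and genes entered counts when either library reached 1 FPKM. A gene past 2-fold was counted as differing. With 1 library a group no test was possible and no p-value was computed. Levels under 3 reads are given as limits at 3 reads. Named genes were Setdb1, the 10 members, the highest and lowest ratio of 9 lists and 6 relatives (Tcf7l1, Sox8, Sox10, Axin1, Apc and Nkd2). Markers of cell types and loci that overlap Setdb1 or a member were also named. Other genes outside this rule are said to be named after their values were seen, including Znrf3, which is also plotted. The rule itself names no gene for a pattern like a member's, since 2 libraries give 1 ratio. Members, lists and rules were chosen with earlier results of these data known. Alternatives were the pseudocount, filter, scaling, threshold, CPM and read ratios. The calculations were tested on simulated data. The software was scipy 1.17.1, pandas 2.3.3, numpy 2.4.6 and matplotlib 3.10.9 under Python 3.11.15.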

Additional observations from a re-analysis of the deposited data

How the results depend on the processing

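Of 140 alternative values of the main results, 114 stayed within counting error (for counts, within 1.5 times), 25 moved and 1 reversed. Some of the 114 could not move, since a filter cannot change the log2 ratio of a single gene. With 1 FPKM added, genes under 1 FPKM in both libraries cannot reach 2-fold, so counts without a filter were also fixed. The direction of the 6 members with at least 20 reads held under every alternative run for them. Sox9 stayed between 1.03 and 1.19, past 2-fold under each. Setdb1 was at -2.04 when 0.1 FPKM was added in place of 1, -2.06 on log2(CPM + 1) and -2.13 as a plain read ratio. As a plain read ratio Axin2 was at -1.39, which made 1 member at least 2-fold lower in place of 0. Ctnnb1 was at 0.72 both under upper-quartile scaling and without the 100 highest genes. The members' median was 0.78 with a filter at 5 FPKM, which left Ctnnb1, Sox9 and Klf5. At 1.5-fold 2 members were higher and at 4-fold 0.

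Over the 8 lists together, intestinal stem cell and differentiated genes included, 62 genes reached 1 FPKM. Of these, 8 were at least 2-fold higher and 2 lower, beside 6.81% and 4.85% of all genes. List genes higher were 14 by read ratio, 14 at 1.5-fold and 3 at 4-fold. List genes lower were 5 with a pseudocount of 0.1, 6 on log2(CPM + 1), 9 by read ratio, 10 at 1.5-fold and 0 at 4-fold. The read ratios cover 73 list genes with at least 20 reads, beside shares of 10.7% higher and 10.3% lower over all such genes. Over all genes, those higher were 1134 with a pseudocount of 0.1, 1341 by read ratio, 1804 at 1.5-fold and 116 at 4-fold, and those lower were 870, 1298, 1523 and 56. The all-gene counts are out of 10671 genes at 1 FPKM, and by read ratio out of 12546 genes with at least 20 reads. Thresholds and pseudocounts move these counts by construction, and the read ratios cover another set of genes. By read ratio Fzd7 (1.06), Btrc (1.04), Tle2 (1.22), Fzd6 (-1.05), Crebbp (-1.03) and Cdca7 (-1.07) were past 2-fold on the log2 scale, which they were not in the main values. Apcdd1, near 0, reversed to -0.015 under upper-quartile scaling and without the 100 highest genes, to -0.00565 with own read totals, to -0.00682 on log2(CPM + 1) and to -0.00772 by read ratio. No paired analysis was possible because there was a single library a group, and leaving out a library was impossible for the same reason. Depth limits Axin2 and the 4 members with at most 1 read.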
